A study of Homo sapiens with 3 samples.

Results

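The histone genes measured on the arrays comprised 82 genes of the 19740 named genes, with 99 probes. They were chosen as the gene probes whose RefSeq accession maps to a histone gene by its current or older symbol, and were then sorted by gene name into 62 replication-linked genes, 10 variants, 8 germline genes and 2 pseudogenes. The names decided which genes belong, whereas H2BC26 (older name HIST3H2BB) was chosen by its lower signal under both doses on these same arrays, so that its values are given as a description and support nothing. By the same rule the annotation holds 128 histone genes, of which 46 had no matched probe, and 38 of those are pseudogenes. On chromosome 6 lay 51 of the 62 replication-linked genes, on chromosome 1 another 10, and on chromosome 12 the remaining 1, whereas the 10 variants lay on 10 different chromosomes.

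The samples were Huh7 cells, an established human hepatoma line grown in DMEM with 10% fetal serum, either untreated or given the plant phenol chlorogenic acid (CA) for 24 h at 50 μM or at 100 μM. The study asked whether CA drives tumor cells towards differentiation, and its methods name the solvent DMSO as the reference of the untreated group. From each group 1 total RNA sample, carrying Cy3, went onto 1 whole-genome oligonucleotide array. With 1 array per group the differences between arrays have no replicate check, no test between conditions was possible, and culture-to-culture variation is unknown.

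Histones package DNA into nucleosomes, each built of H2A, H2B, H3 and H4, and a linker histone H1 binds where the DNA enters and leaves. The replication-linked genes are clustered, are transcribed mainly in S phase, and give mRNAs that end in a stem-loop bound by SLBP instead of a poly(A) tail. The variants are single genes and give proteins that replace the main types at particular sites. Most, though not all, have only polyadenylated mRNAs and are expressed throughout the cell cycle and in resting cells. The primers used for labelling and the probe sequences were not analysed here, so that the part of stem-loop and polyadenylated forms in each signal, and the share of signal that near-identical histone mRNAs contribute to a probe, were not tested.

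Values are scaled intensities, namely the processed signal in arbitrary units after each array was brought to the 75th percentile of the untreated array (1059 units; 1207 and 1249 units on those of 50 and 100 μM before scaling). A log2 ratio is the difference of 2 arrays on the log2 scale, and a gene is represented by the probe with the highest mean over the 3 arrays among those well above background on both arrays compared. Between 70.4% and 71.1% of gene spots were well above background on each array. The 95% range of the log2 ratio over all genes was -0.56 to 0.68 at 50 μM CA (14700 genes) and -0.49 to 0.49 at 100 μM CA (14640 genes). The 100 μM array had 2460 spots in disturbed areas, where probes dim on the other arrays were bright, against 60 and 38 spots on the others, and 4 histone probes (of H2AB2, H2AC19, H2BC8 and H4C4) lay there. Each histone probe was printed once, so its own spot error is unknown. The SD of a log2 ratio between replicate spots of 807 other probes had a median of 0.12 at 50 μM CA and 0.13 at 100 μM CA in the dimmest of 4 signal classes, and of 0.050 at both doses in the brightest. This SD covers differences between places on an array and not between cultures.

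H2BC26 and H2AC25 are shown first by sequence, since they point away from each other and share the DNA between their starts, yet differed in direction on the arrays. RefSeq gives 230 bases from one start to the other, on the plus strand for H2BC26 and on the minus strand for H2AC25. The bases between both starts are printed 5′ to 3′ on the strand of H2BC26, with CCAAT boxes on either strand in capitals, at chr1:228457874-228458102 of GRCh38.p14.
H2AC25 to H2BC26: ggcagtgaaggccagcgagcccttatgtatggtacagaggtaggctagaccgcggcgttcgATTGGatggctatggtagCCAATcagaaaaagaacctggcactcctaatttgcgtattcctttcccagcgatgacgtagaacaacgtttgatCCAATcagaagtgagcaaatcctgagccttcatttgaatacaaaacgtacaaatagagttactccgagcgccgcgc

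H2B promoters are known for an octamer, ATTTGCAT, bound by the transcription factor POU2F1 (OCT1). H2BC12 is shown beside the shared stretch because, of the measured H2B genes whose promoter holds the octamer, its probe was the brightest on the untreated array. Its 150 bases before the start, on the minus strand at chr6:27146859-27147008, carry the octamer, CCAAT boxes and TATAAA in capitals.
H2BC12: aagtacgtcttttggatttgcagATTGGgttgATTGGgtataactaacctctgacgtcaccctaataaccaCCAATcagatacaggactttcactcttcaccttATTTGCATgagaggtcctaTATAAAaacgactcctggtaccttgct

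RefSeq promoter windows, from 250 bases before to 50 bases after the start, were found for 74 of the 82 genes. The octamer, read on either strand, was present in 13 of 17 replication-linked H2B windows and 9 of 13 H2A windows, in none of 12 H4 windows, and in 1.8% of all 27305 windows. H2BC26 and H2AC25 held no exact match. Both stretches of the H2BC26 window that differ from the octamer by 1 base lay on its own strand. They were ATTTGCGT, which begins 121 bases before the start and differs by A7G, and ATTTGAAT, which begins 45 bases before it and differs by C6A, with positions counted from the 5′ end of the octamer. In H2BC12 the exact octamer begins 46 bases before the start. A stretch with at most 1 difference was found in 17.2% of all windows. CCAAT was present in all 17 H2B and all 13 H2A windows against 35.7% of all windows. The other 3 measured H2B genes whose window lacked the exact octamer (H2BC5, H2BC13 and H2BC15) had log2 ratios of 0.07, 0.19 and 0.14 at 50 μM CA. At 100 μM CA these were 0.14, 0.14 and 0.09. The 12 measured H2B genes with the octamer had medians of 0.07 at 50 μM CA and 0.04 at 100 μM CA. A bearing of the octamer on the ratios was not tested. A match in these letters is a description and not a site of binding.

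H2BC26, a main-type H2B gene of the small cluster on chromosome 1, was lower on both CA arrays. Its scaled intensity was 159 in untreated cells, 37.7 at 50 μM CA and 34.0 at 100 μM CA, all well above background. The untreated array was the high one, and both treated arrays were low and close to each other. The log2 ratios were -2.08 and -2.23, or 4.23-fold and 4.69-fold lower. Among all genes measured, H2BC26 ranked number 3 of 14700 from the lowest ratio at 50 μM CA and number 1 of 14640 at 100 μM CA. The spot lay outside disturbed areas and carried no flag. Its median spot intensity before correction was 215.5 untreated, 104.5 at 50 μM CA and 102 at 100 μM CA, over local backgrounds of 32, 28 and 28. With the normexp background correction, which adds an offset of 50, the log2 ratios were -0.86 and -0.92, so that the size depended on how background was removed, whereas the sign did not.

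The neighbours of H2BC26 had other values. H2AC25, the H2A gene across the shared stretch, had a scaled intensity of 27.9 untreated, 37.6 at 50 μM CA and 37.7 at 100 μM CA, that is, a log2 ratio of 0.43 at both doses. Under normexp these were 0.12 and 0.11. H3-4, a testis-type H3 gene of the same cluster, was at 26787 untreated, 20379 at 50 μM CA and 21704 at 100 μM CA, with log2 ratios of -0.39 and -0.30. On the untreated array this probe was brighter than that of any replication-linked H3 gene, the highest being H3C6 at 7216. The share of its signal from other H3 mRNAs was not tested. Within the cluster H2BC26 and H3-4 were thus lower at both doses, to different extents, whereas H2AC25 was higher. The nearest measured genes outside the cluster, RNF187 and TRIM11, which are ubiquitin ligase genes, had log2 ratios of 0.21 and 0.30 at 50 μM CA and of 0.02 and 0.03 at 100 μM CA. H2BC26 has a single probe, so no second probe could be set beside it.

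**Figure D1:**
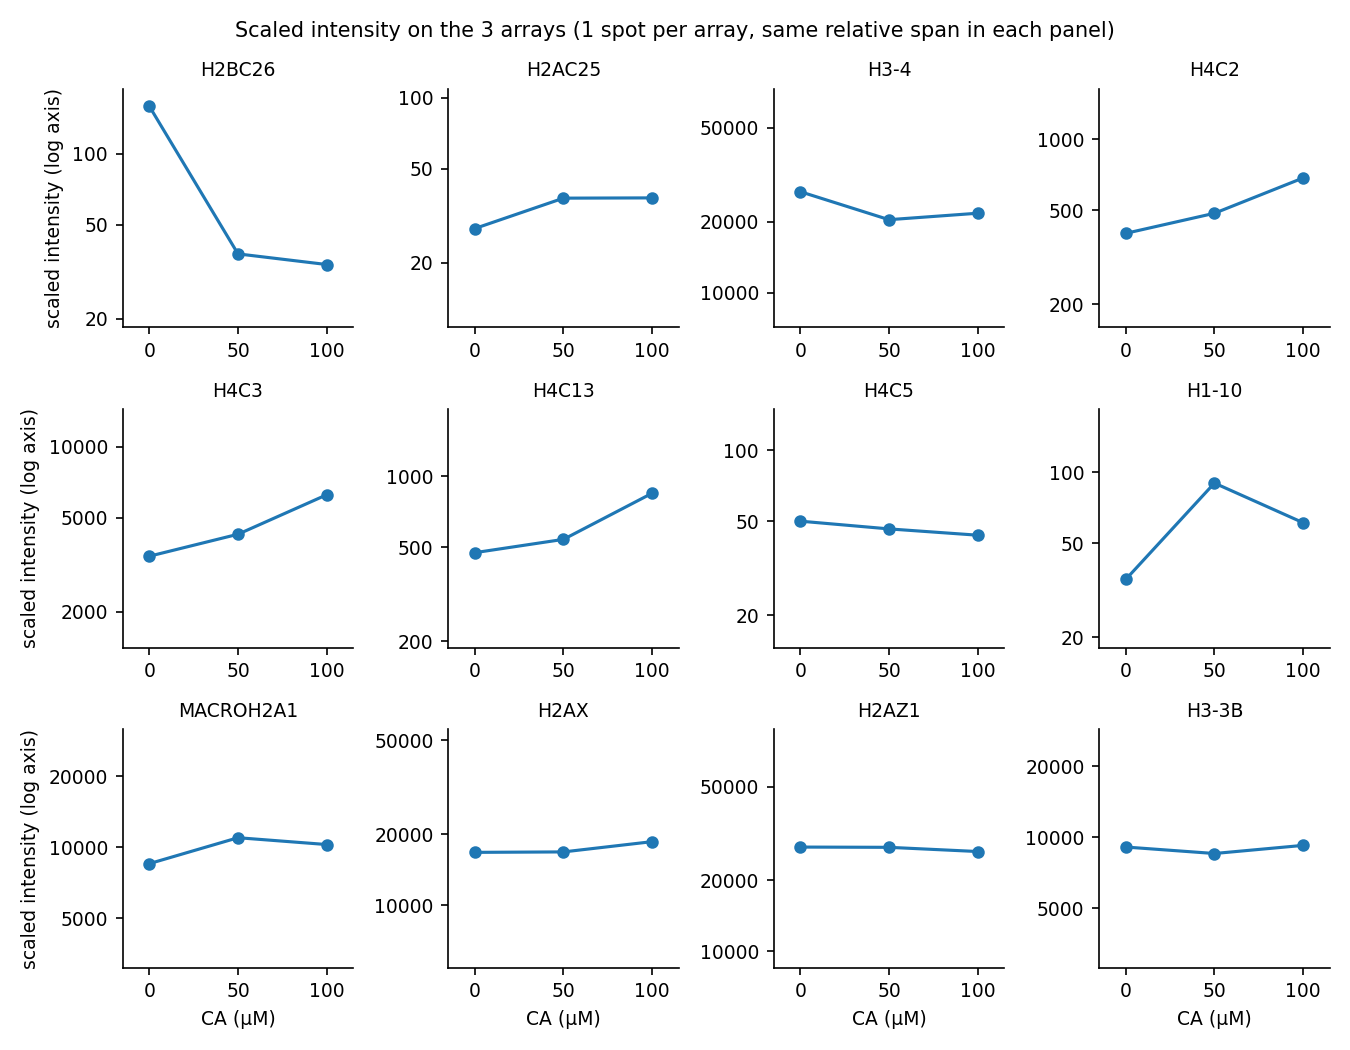
Scaled intensity (log axis, arbitrary units) of 12 histone genes on the untreated, 50 μM CA and 100 μM arrays, 1 point per array and the same relative span in every panel. H2BC26 drops from 159 to 37.7 and 34.0, H4C2, H4C3 and H4C13 are highest at 100 μM CA, and H1-10 is highest at 50 μM CA.

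Apart from H2BC26, the replication-linked genes as a class stayed near the untreated array. Of the 62 genes, 57 were well above background on all 3 arrays, H1-1, H1-5, H4C7 and H4C16 on none, and H2BC7 on both CA arrays only. The median log2 ratio of the 57 was 0.07 at 50 μM CA and 0.06 at 100 μM CA, against -0.04 and -0.03 over all genes. For each of the 57, the median over all genes of its signal class (10 classes) was also taken. The median of these values was -0.02 and -0.02. At 50 μM CA 40 of the 57 lay above 0 and at 100 μM CA 38 did, compared with 43.7% and 42.3% of all genes. For H2BC7, counted at the floor of the untreated array, the bound was at least 1.39-fold higher at 50 μM CA and at least 1.15-fold at 100 μM CA.

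Few members passed a difference of 1.5-fold. At 50 μM CA 1 of 72 measured histone genes was at least 1.5-fold higher (H1-10), where 4.15% of all genes were, and 1 was at least 1.5-fold lower (H2BC26), where 2.17% were. At 100 μM CA 5 of 72 were at least 1.5-fold higher (H1-10, H2AB2, H4C2, H4C3 and H4C13), against 1.65% of all genes, and 1 was lower (H2BC26), against 1.54%. H2AB2 was counted by a probe in a disturbed area of the 100 μM array, and its other probe gave -0.24. At 2-fold, H1-10 was higher and H2BC26 lower at 50 μM CA, where 0.456% and 0.517% of all genes were. At 100 μM CA 0 were higher and H2BC26 was lower, where 0.451% and 0.205% of all genes were. Both comparisons use the same untreated array, so that a high or low spot on it enters both.

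**Figure D2:**
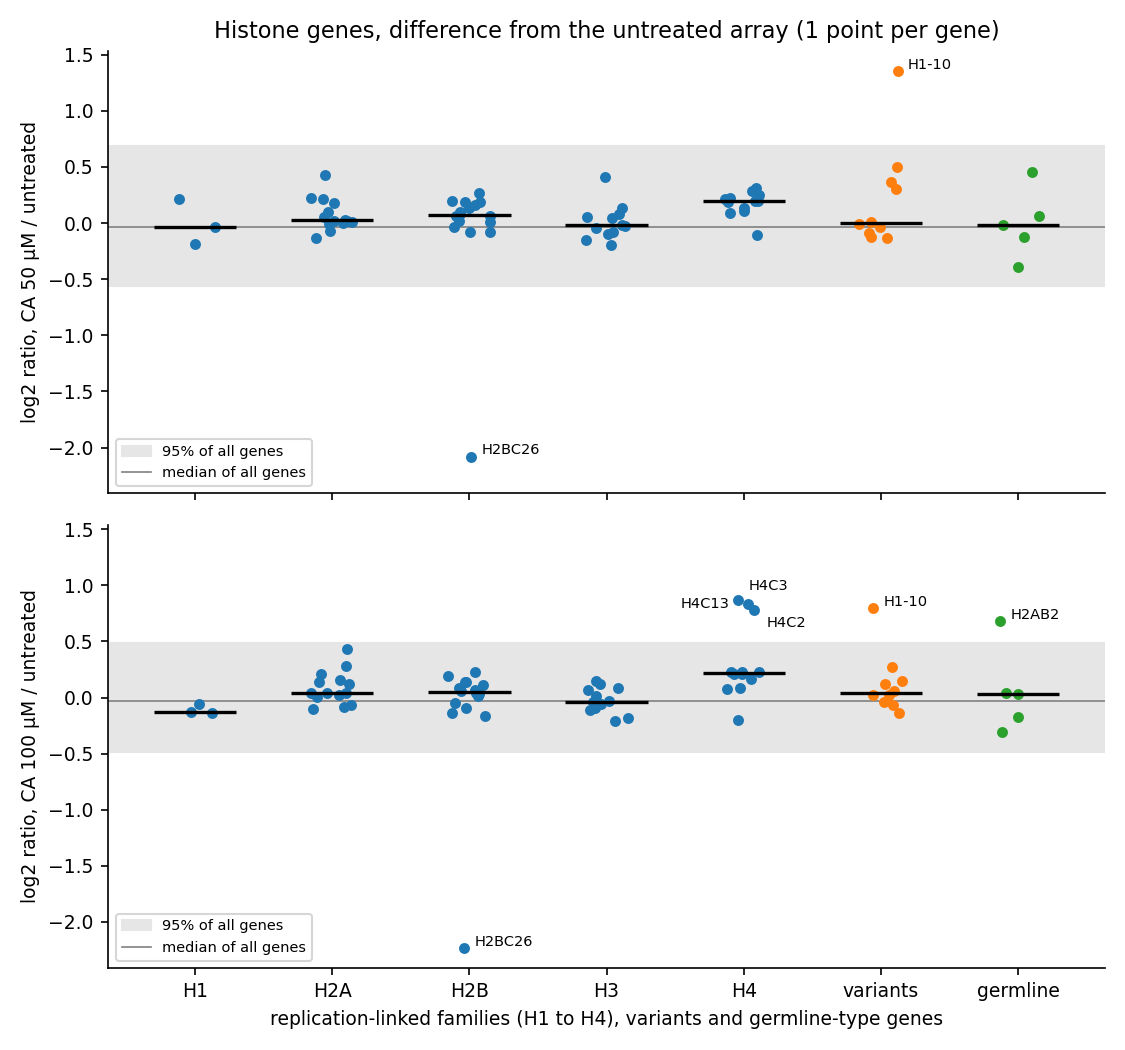
Log2 ratio to the untreated array of each measured histone gene at 50 μM CA (top) and 100 μM CA (bottom), by replication-linked family, variants and germline genes, 1 point per gene. Black bars are group medians, the grey line is the median and the grey band the 95% range of all genes; H2BC26 lies far below the band at both doses and the H4 medians are 0.20 and 0.22.

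The linker histones H1 of the clusters compact the fibre between nucleosomes. Of 5 genes 3 were measured, with median log2 ratios of -0.04 at 50 μM CA and -0.13 at 100 μM CA. H1-2 was at 15222 untreated, 13417 at 50 μM CA and 13810 at 100 μM CA, H1-3 at 255.5, 249 and 233, and H1-4 at 423, 490 and 408. At 100 μM CA all 3 lay below the untreated array by 0.05 to 0.14 on the log2 scale, and H1-4 changed its side between doses. Under normexp the H1 median at 50 μM CA was 0.03.

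H2A and H2B pair as dimers at the outer faces of the nucleosome. The 14 H2A genes had median log2 ratios of 0.02 and 0.04, and those of the 16 H2B genes were 0.08 and 0.05. Centring on measured probes gave -0.02 for H2A at 50 μM CA. The highest H2A gene at both doses was H2AC25, and the next at 100 μM CA was H2AC6 with 0.28. Without H2BC26 the H2B genes ran from -0.08 to 0.27 at 50 μM CA and from -0.16 to 0.23 at 100 μM CA. H2BC21 was highest at both, with 126 untreated, 152 at 50 μM CA and 148 at 100 μM CA. Its second, dimmer probe gave 0.67 and 0.71. By the probe that represents each gene, the other 15 measured replication-linked H2B genes lay within the 95% range of all genes and H2BC26 did not. By their second probes, H2BC21 lay outside it at 100 μM CA and H2BC18 at 50 μM CA.

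The H3 genes, whose protein tails carry many of the known modifications, were close to the untreated array. Their median log2 ratios over 12 genes were -0.02 and -0.04, and 5 of 12 lay above 0 at each dose. H3C6 was the lowest, at 7216 untreated, 6296 at 50 μM CA and 6228 at 100 μM CA (log2 ratios -0.20 and -0.21), followed by H3C12 with -0.15 and -0.18. H3C15 was the highest at 50 μM CA with 0.41, from 15.75 untreated to 20.97, and was at 17.4 at 100 μM CA. Its probe was dim, and normexp gave 0.09 at 50 μM CA.

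H4 had the highest median of the 5 replication-linked families. H4 genes encode nearly the same protein from many separate copies. The median log2 ratio of the 12 measured genes was 0.20 at 50 μM CA and 0.22 at 100 μM CA, and 11 of 12 lay above 0 at each dose. The 45 other replication-linked genes had a median of 0.03 at both doses. Over the main setting and its 10 alternatives the H4 median ran from 0.10 to 0.20 at 50 μM CA and from 0.09 to 0.22 at 100 μM CA. It was the highest of the 5 families in each, except without a filter on dim probes at 50 μM CA, where H1 with its genes below background reached 0.21. Without H4C2, H4C3 and H4C13 it was between 0.08 and 0.19 at 50 μM CA and between 0.08 and 0.21 at 100 μM CA. The H4 probes could bind mRNAs of more than 1 H4 gene, so that the 12 values may not be separate measurements.

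Within the family, H4C3, H4C2 and H4C13 stood out at 100 μM CA. H4C3 was at 3438 untreated, 4260 at 50 μM CA and 6262 at 100 μM CA. H4C2 was at 399.8, 486 and 687, and H4C13 at 475, 541 and 848. In all 3 the 100 μM array was the highest and the untreated array the lowest. The log2 ratios at 50 μM CA were 0.31, 0.28 and 0.19, and those at 100 μM CA were 0.87, 0.78 and 0.84, or 1.82-fold, 1.72-fold and 1.79-fold higher. Their range over the alternatives at 100 μM CA was 0.84 to 0.93 for H4C3, 0.64 to 0.78 for H4C2 and 0.69 to 0.84 for H4C13. None of the 3 spots lay in a disturbed area or carried a flag. Between the treated arrays H4C13 was the only 1 of 73 measured histone genes that differed by at least 1.5-fold (log2 ratio 0.65, higher at 100 μM CA), where 1.4% of all genes were higher and 1.53% lower.

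The other H4 genes were spread more narrowly. H4C4, H4C8, H4C9, H4C12 and H4C15 had log2 ratios of 0.21 to 0.23 at 100 μM CA, and the brightest probe of H4C4 was among those in disturbed areas there, while its other probe gave 0.39. H4C5 was the exception in direction, at 50.1 untreated, 46.5 at 50 μM CA and 43.7 at 100 μM CA (log2 ratios -0.11 and -0.20). Its signal class had a median spot SD of 0.12 and 0.13, and its difference at 50 μM CA was within that. The second probe of H4C13 was well above background at 50 μM CA only, so it gave no ratio at 100 μM CA. The second probe of H4C1 was likewise above background at 50 μM CA only, at least 1.54-fold higher there, while the first gave 0.14.

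**Figure D3:**
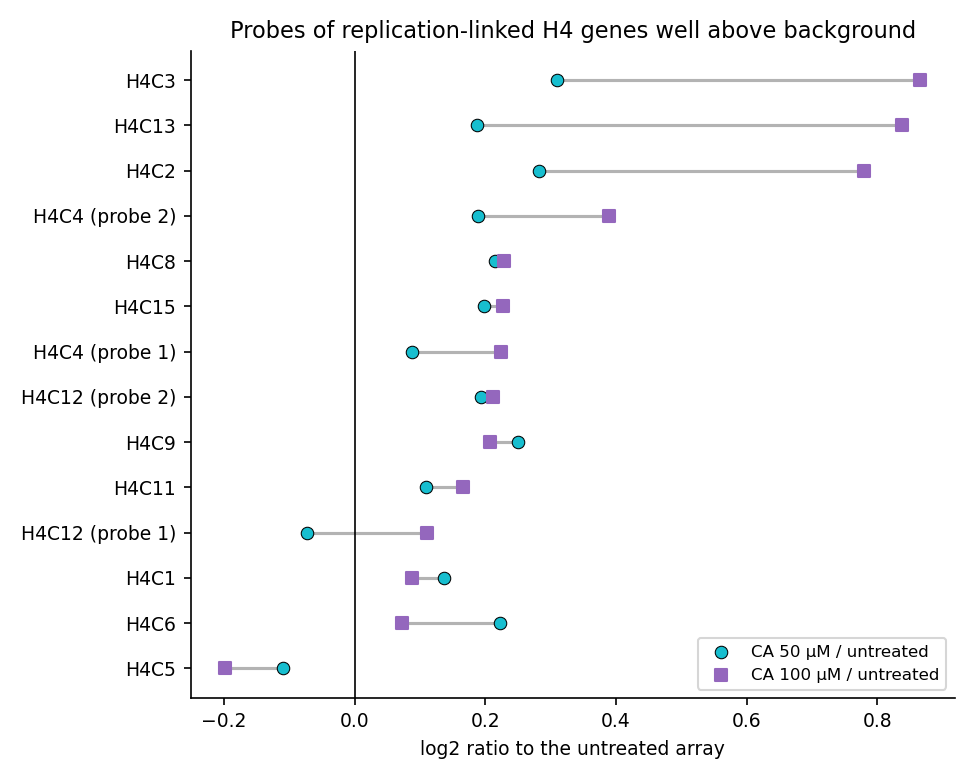
Log2 ratio to the untreated array of each probe of a replication-linked H4 gene that was well above background on all 3 arrays, with circles for 50 μM CA and squares for 100 μM CA joined by a line. H4C3, H4C13 and H4C2 move apart from the other probes at 100 μM CA (0.87, 0.84 and 0.78), and H4C5 is the only one below 0 at both doses.

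H4 promoters are shown for H4C2 and H4C13, which with H4C3 stood out at 100 μM CA, and for H4C5, which went the other way. The promoter of H4C3 could not be read. The 100 bases before each start are given on the minus strand for H4C2 at chr6:26027284-26027383 and for H4C13 at chr6:27873535-27873634, and on the plus strand for H4C5 at chr6:26204510-26204609, all of GRCh38.p14. Capitals mark GGTCCG, the core of the known H4 element bound by HINFP, and TATAAA.
H4C2: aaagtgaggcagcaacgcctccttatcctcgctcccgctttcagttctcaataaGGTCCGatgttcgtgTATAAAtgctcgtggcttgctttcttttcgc
H4C13: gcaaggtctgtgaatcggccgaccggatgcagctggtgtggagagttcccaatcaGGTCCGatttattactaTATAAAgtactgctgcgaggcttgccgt
H4C5: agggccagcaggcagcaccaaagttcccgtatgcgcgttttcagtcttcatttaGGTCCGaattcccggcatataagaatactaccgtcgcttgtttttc

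Among replication-linked genes, GGTCCG on either strand was found in 11 of 12 H4 windows, beginning 44 to 47 bases before the start. It was found in 1 of 17 H2B, 1 of 13 H2A, 1 of 10 H3 and none of 5 H1 windows, and in 11.2% of all windows. Of the variants, 2 of 9 windows held it, those of H1-10 and MACROH2A2, and of the germline genes 0 of 8. In H1-10 a copy begins 46 bases before the start. As a match in letters, the element was present in H4C2, H4C13 and H4C5. Its bearing on the ratios was not tested. TATAAA was found in 7 of 12 H4 windows and in 12% of all windows, and H4C5 held no exact match. H4C3 had no entry in the promoter table.

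The variants were compared with the replication-linked genes as a class. All 10 variants were well above background on all 3 arrays. Their median log2 ratio was 0.00 at 50 μM CA and 0.04 at 100 μM CA, against 0.07 and 0.06 in the replication-linked genes. For each variant the median over all genes of its signal class was taken, and the median of these values was -0.14 and -0.08. Differences between the class medians were small beside the spread within each class, whose middle 50% ran from -0.08 to 0.35 in variants and from -0.02 to 0.19 in replication-linked genes at 50 μM CA. The variant median also moved with the scaling, from -0.05 under centring on the median of measured probes to 0.14 under normexp at 50 μM CA, so its side of 0 was not stable at that dose. The order of the classes was not stable either. The variant median was above that of the replication-linked genes under quantile normalization (0.13 against 0.05 at 50 μM CA, 0.12 against 0.05 at 100 μM CA), under normexp (0.14 against 0.03, 0.13 against 0.05), in the deposited table (0.12 against 0.05, 0.14 against 0.06) and under centring within signal classes (0.08 against 0.05, 0.08 against 0.07).

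Among variants, H1-10 had the highest log2 ratio at both doses, though not under normexp. H1-10, a linker histone made throughout the cell cycle, was at 35.1 untreated, 90.0 at 50 μM CA and 61.1 at 100 μM CA. Both treated arrays were higher, with the 50 μM array the highest, by log2 ratios of 1.36 and 0.80. The probe was dim, with spot medians of 90, 147 and 120 over backgrounds of 26, 30 and 31, and normexp gave 0.37 and 0.13.

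The macroH2A proteins carry a large domain beside the histone fold and are known from silent chromatin. MACROH2A1 was at 8531 untreated, 10989 at 50 μM CA and 10280 at 100 μM CA (log2 ratios 0.37 and 0.27), and MACROH2A2 at 1643, 2025 and 1788 (0.30 and 0.12). Both were highest at 50 μM CA. Under the alternatives all values of both genes stayed above 0.

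The other H2A variants hardly differed. H2AX, phosphorylated around DNA breaks, was at 16729 untreated, 16803 at 50 μM CA and 18572 at 100 μM CA, a log2 ratio of 0.15 at the higher dose. H2AZ1 and H2AZ2 encode H2A.Z, which marks promoters. H2AZ1 was at 27693, 27625 and 26516, and H2AZ2 at 19679, 17932 and 20541, where its second probe gave log2 ratios of 0.05 and 0.16 against -0.13 and 0.06. H2AJ had -0.03 and -0.04. The sign of H2AX, H2AZ1, H2AZ2 and H2AJ at 50 μM CA changed under at least 1 scaling alternative.

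H3-3A and H3-3B encode the same protein, H3.3, which is placed at transcribed genes and telomeres outside replication. H3-3A was at 75631 untreated, 69211 at 50 μM CA and 68540 at 100 μM CA (-0.13 and -0.14), and its 3 probes lay between -0.16 and -0.10 at 50 μM CA. H3-3B was at 9087, 8531 and 9236 (-0.09 and 0.02). For H3-3A quantile normalization gave 0.08 and 0.11, so its direction depended on the scaling. For H3-3B at 50 μM CA quantile normalization gave 0.01, so that sign was not stable either.

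Germline histone genes are normally active in testis or oocytes. With well above background as the limit, of 8 genes H1-6, H1-8 and H2BC1 stayed below that limit on all 3 arrays, and the 5 others had median log2 ratios of -0.01 and 0.03. At 100 μM CA this median turned negative without disturbed areas (-0.17), under quantile normalization (-0.06), under normexp (-0.05) and in the deposited table (-0.06). H2AB2 reached 0.68 at 100 μM CA by its brightest measured probe, which was among the spots in disturbed areas there, from 34.5 untreated and 47.2 at 50 μM CA to 55.2. Its other probe, outside such an area, was at 42.5, 53.5 and 36.1, with a log2 ratio of -0.24. That probe was the brighter one untreated and at 50 μM CA, so the spot in the disturbed area decided which probe represented the gene. H2AB3, H2AC1 and H1-7 lay between -0.13 and 0.06 at 50 μM CA. The pseudogenes H1-9P and H2AC2P stayed below it too.

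Genes with several probes allowed a check within each array. Of 12 histone genes with more than 1 probe well above background, the probes of a gene differed by a median of 0.13 at 50 μM CA and 0.12 at 100 μM CA on the log2 scale. At 50 μM CA 2 genes exceeded 1. The brightest probe of H2BC18 gave 0.01 and a dim one, at 45.3 untreated, 162 at 50 μM CA and 41.8 at 100 μM CA, gave 1.84. H2AC6 gave 0.21 by its brightest probe and 1.30 by a dim one at 16.02, 39.3 and 17.8. In both, the 50 μM array alone was high in the dim probe. At 100 μM CA no gene exceeded 1.

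**Figure D4:**
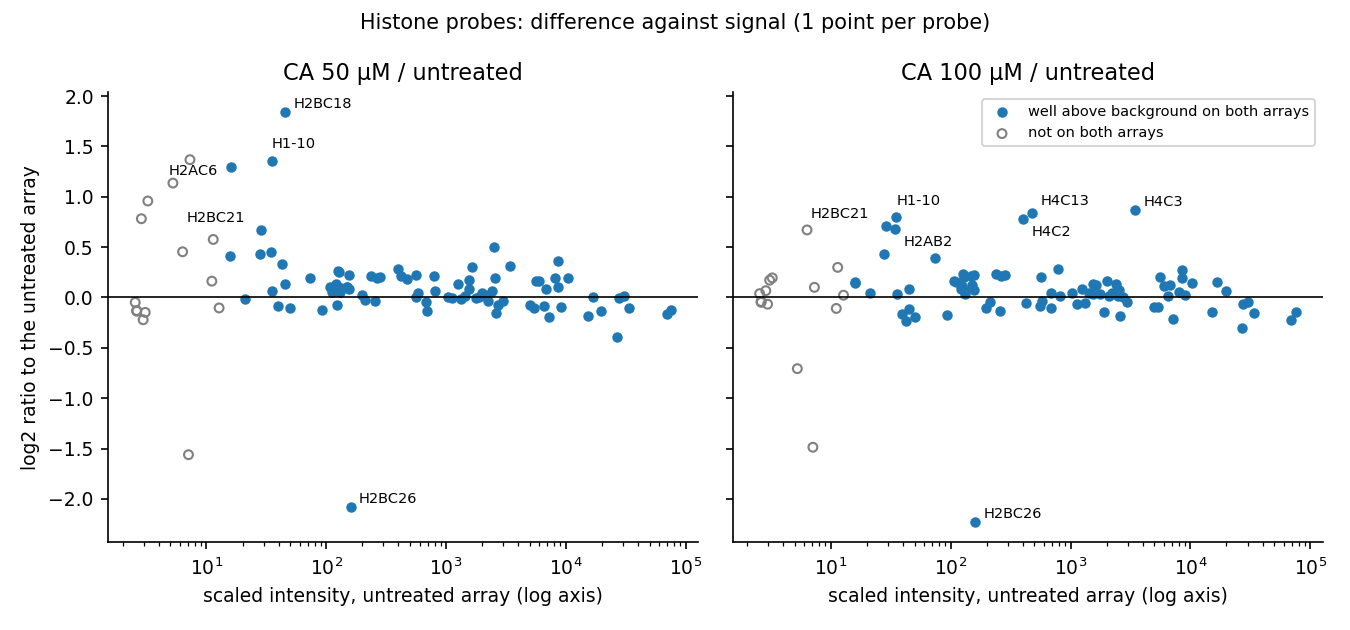
Log2 ratio of each of the 99 histone probes at 50 μM CA (left) and 100 μM CA (right) against its scaled intensity on the untreated array (log axis), 1 point per probe, open where a probe was not well above background on both arrays. Of the probes well above background on both arrays, those past 1.5-fold at 50 μM CA (H2BC18, H1-10, H2AC6, H2BC21 and H2BC26) lie between 16.02 and 159 on the untreated array; at 100 μM CA those of H1-10, H2BC21, H2AB2 and H2BC26 lie between 28.8 and 159, and H4C2, H4C13 and H4C3 between 399.8 and 3438.

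The genes that make, process and place histones were followed through 4 lists. Over all genes 4.15% were at least 1.5-fold higher and 2.17% lower at 50 μM CA. At 100 μM CA these shares were 1.65% and 1.54%. Counts past 1.5-fold in these short lists, and among the marker genes further below, are to be read beside these shares. Of 12 genes for 3′ end processing and turnover of histone mRNA, 11 were measured, with median log2 ratios of -0.09 and -0.01, and 0 passed 1.5-fold. SLBP, which binds the stem-loop, was at 11348 untreated, 11500 at 50 μM CA and 11277 at 100 μM CA. SYMPK, a scaffold of the cleavage complex, was the lowest of the list with -0.42 and -0.35. All 8 genes of histone gene transcription were measured, with medians of -0.02 and 0.01 and 0 past 1.5-fold. NPAT, the coactivator of the histone loci, had -0.04 and -0.12. HINFP, the factor of the H4 element, had 0.19 and 0.05, and POU2F1 had -0.24 and 0.15. The probe of HINFP lay in a disturbed area of the 100 μM array, and that of POU2F1 carried a background flag on the 50 μM array.

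Of 22 chaperones and related genes, 21 were measured, with medians of -0.03 and 0.02. NAP1L4, a chaperone of H2A and H2B, was at 95.2 untreated, 235 at 50 μM CA and 181 at 100 μM CA (log2 ratios 1.31 and 0.93), and its spot lay in a disturbed area of the 100 μM array. SRCAP, whose complex exchanges H2A for H2A.Z, was at 28.1, 43.0 and 32.7, and passed 1.5-fold at 50 μM CA only (0.61). CENPA, the H3 variant of centromeres, had -0.03 and 0.12.

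All 20 genes of DNA replication were measured, with medians of -0.00 and 0.02. RRM2, the small subunit of ribonucleotide reductase, was the only one past 1.5-fold, at 771 untreated, 1273 at 50 μM CA and 1532 at 100 μM CA (0.72 and 0.99). PCNA, the sliding clamp, had -0.10 and -0.02, and its probe lay in a disturbed area of the 100 μM array. The replication genes as a list thus stayed near the untreated array, as did the replication-linked histones other than H4. Across the processing alternatives the medians of the 4 lists (3′ end processing and turnover, histone gene transcription, chaperones and DNA replication) ranged from -0.14 to 0.12, and each lay on both sides of 0 at 1 dose at least.

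The label of the cells was set beside marker genes. Of 8 hepatocyte and hepatoma markers 7 gave a ratio and were well above background on all 3 arrays, among them ALB at 109428 untreated, 98941 at 50 μM CA and 85563 at 100 μM CA, and AFP at 95490, 78696 and 71019. Their median log2 ratios were -0.16 and -0.31, and 0 of 7 passed 1.5-fold. Quantile normalization gave medians of -0.02 and -0.12 and normexp 0.03 and -0.05, so that the size and, at 50 μM CA, the direction depended on the processing. Of 6 markers of other cell types (PTPRC, CD3E, CD68, PECAM1, COL1A2 and KRT5) 5 were well above background, with scaled intensities of 28.1 to 480 on the untreated array, and KRT5 was not. Their median log2 ratios were 0.16 and -0.07, and 0 of 5 passed 1.5-fold. Their part in the histone values was not tested.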

How the data were processed

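The 3 groups of Huh7 cells (untreated, CA 50 μM, CA 100 μM) were taken from the treatment label, with 1 array each on 1 slide scan. The authors extracted spots with Agilent Feature Extraction 11.0.1.1, per the labels and the submitters' processing notes, and deposited intensity values with background subtracted and surface trends removed, not scaled between arrays. A log2 table of the same arrays was also deposited, with its method not given in the sources used here, and served as an alternative.

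From each log2 processed signal the 75th percentile of its array was subtracted, without control spots and outlier flags. Probes well above background on at least 50% of spots were kept, and named through RefSeq accessions (25771 of 34127 probes). Genes took their brightest probe. No test was run, since groups hold 1 array. Members, classes, lists and tests were chosen with earlier results of these data known. Genes were named by a rule: H2BC26 and its cluster, all variants, the 4 highest and 4 lowest replication-linked genes at each dose, genes past 1.5-fold at both doses or with probes differing by more than 1, and list genes past 1.5-fold with SLBP, NPAT and CENPA. A result that this rule names is not reported here. The other genes named were added after their values were seen. An area counted as disturbed where, in 17 rows by 7 columns, at least 5 spots, and 25% of otherwise dim ones, were at least 4-fold brighter on 1 array. Promoter windows came from RefSeq (GRCh38.p14). The steps were tested on simulated data. Python 3.11.15, numpy 2.4.6, pandas 2.3.3, matplotlib 3.10.9, R 4.3.3 and limma 3.58.1 were used.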

Additional observations from a re-analysis of the deposited data

How the results depend on the processing

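Since each group is 1 array, leaving out a replicate or fitting the slide as a block was not possible, and precision rests on the signal over background of single spots. The 10 alternatives were quantile normalization, centring on measured probes, normexp, the deposited log2 table, looser and no filters on dim probes, the mean over probes, leaving out disturbed areas or saturated spots, and centring within 10 signal classes, the last chosen after seeing the data. Of 46 named values, 35 kept their sign under every alternative that gave a value and 11 changed it under at least 1. The median log2 ratio of variants moved to 0.13 at CA 50 μM and 0.12 at CA 100 μM under quantile normalization, to 0.14 and 0.13 under normexp, to 0.12 and 0.14 in the deposited table, and to 0.079 at CA 50 μM under centring within 10 signal classes. H2BC26 moved to -0.86 and -0.92 under normexp, and at CA 50 μM to -2.15 in the deposited table and to -2.17 within 10 signal classes. Normexp left 3 histone genes at least 1.5-fold higher at CA 100 μM. Without a filter, 4 were higher and 2 lower at CA 50 μM and 3 lower at CA 100 μM, since probes not above background then enter. The mean over probes gave 3 higher at CA 50 μM, since the dim probes of H2BC18 and H2AC6 then count. The shares over all genes given above are those of the main setting, and none stand beside these counts. For the other moved values the cause was not tested. No paired analysis was possible because each group holds 1 array.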
